A study of Homo sapiens with 12 samples.

Results

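Peaks of 2 enhancer-associated histone modifications, H3K4me1 and H3K27ac, were compared in the human prostate epithelial line RWPE-1 at places lying away from H3K4me3. Members were the peaks of the combined H3K4me1 and H3K27ac lists on chromosomes 1 to 22 with no H3K4me3 peak within 1000 bases of either edge. The rule kept 147159 of 170539 autosomal H3K4me1 peaks (86.3%) and 41890 of 59741 autosomal H3K27ac peaks (70.1%), together 189049 of the 458841 peaks held by the 5 deposited lists. RWPE-1 cells are normal prostate epithelial cells immortalised with HPV18, and all of them were grown untreated in keratinocyte serum-free medium with bovine pituitary extract and EGF. The study holds 12 libraries of this one line: 2 ChIP-seq replicates for each of 5 histone H3 marks, 1 sonicated input and 1 DNase-digested sample. Each mark has 1 list that combines its 2 replicates, so no value below carries a replicate error and no test between replicates could be made. An established, virus-immortalised line in culture stands for no other state of prostate epithelium, and the labels do not say whether the replicates came from separate cultures.

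H3K4me1 is monomethylation of lysine 4 of histone H3, laid down at enhancers mainly by the methyltransferases KMT2C and KMT2D, and it marks enhancers whether or not they are in use. H3K27ac is acetylation of lysine 27 by p300 and CBP and is found at active enhancers and active promoters, while H3K4me3 marks promoters. Enhancers carrying H3K4me1 without H3K27ac are often called primed, and the 2 marks are therefore commonly read together.

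Positions are in hg19. A peak was counted as touched when it shared at least 1 base with a member peak of the other mark. Intervals in parentheses are 95% Wilson intervals; they cover counting error only and treat peaks as independent, which neighbouring peaks are not. The spread over the 22 autosomes is given as a second yardstick. The score is the peak caller's value from the deposited lists, where a higher score is a stronger call. It was used to order peaks within a list. Some alternatives also used it as a minimum of 100, in 1 of them set alike in the H3K4me1, H3K27ac and H3K4me3 lists. Scores started at 50 and 3100 was a ceiling reached by 129 autosomal H3K4me1 and 3666 autosomal H3K27ac peaks. The lists give no read counts, so the depth behind a peak is unknown.

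Most H3K27ac away from H3K4me3 lay on H3K4me1, while most H3K4me1 lay apart from H3K27ac. Of the 41890 H3K27ac peaks, 33904 touched H3K4me1, or 80.9% (80.6 to 81.3). Of the 147159 H3K4me1 peaks, 37053 touched H3K27ac, or 25.2% (24.96 to 25.4). Over all autosomal peaks of both lists, with no condition on H3K4me3, these shares were 80.2% for H3K27ac and 32.6% for H3K4me1. The H3K27ac share was close to that of its whole list, so it was not particular to places away from H3K4me3. The difference for H3K4me1 came with its 23380 peaks within 1 kb of H3K4me3, of which 76.4% touched an H3K27ac peak of any place. Of the 17851 H3K27ac peaks within 1 kb of H3K4me3, 75.2% touched an H3K4me1 peak of any place. By bases, H3K27ac covered 31.0% of the 146 Mb under H3K4me1, and H3K4me1 covered 71.8% of the 63.2 Mb under H3K27ac. H3K27ac member peaks occupied 2.20% of the 2880 Mb of these chromosomes, which makes their cover of H3K4me1 14.1 times their cover of the genome. Each chromosome was counted from its start to its last peak of any mark, including stretches where no member can lie. With those stretches left out the ratio would be lower. Counting H3K27ac peaks near H3K4me3 as well added 657 touched H3K4me1 peaks and brought their share to 25.6%.

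The split was present on each chromosome, at differing levels. The touched share of H3K4me1 was lowest on chromosome 19 at 20.9%, had a median of 25.03% and was highest on chromosome 20 at 31.5% (SD 2.41 percentage points over 22 chromosomes). The touched share of H3K27ac ran from 70.8% on chromosome 13 over a median of 80.3% to 90.0% on chromosome 22 (SD 5.23 percentage points). All 22 had the larger share on the H3K27ac side. The H3K4me1 list is the longer, with 147159 peaks against 41890, and most touched peaks met 1 partner. List length thus fixes part of this order. H3K4me1 peaks lying more than 500 and up to 1000 bases from H3K4me3, just left out, touched H3K27ac of any place in 29.8% of 2798 cases. Those lying more than 1000 and up to 1500 bases away, just kept, did so in 24.7% of 2703 cases. For H3K27ac at the same positions, 89.6% of 730 peaks just left out and 88.7% of 718 just kept touched H3K4me1 of any place.

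H3K4me1 peaks that carried H3K27ac were wider and higher scoring than those that did not. The median touched H3K4me1 peak was 1224 bases wide (quartiles 870 and 1931) and scored 220 (quartiles 110 and 433). The median untouched one was 693 bases wide (545 and 908) and scored 78.0 (61.0 and 115). A touched peak drawn at random was wider than an untouched one with probability 0.810, and scored higher with probability 0.812. Separation on the H3K27ac side was smaller. The median H3K27ac peak on H3K4me1 was 1135 bases wide and scored 147, against 780 bases and 77.1 for the 7986 without it, and the corresponding probabilities were 0.685 and 0.690.

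Along the width classes the touched share of H3K4me1 climbed from near none to nearly all. It was 2.68% of 2460 peaks under 400 bases, 5.23% of 37788 peaks of 400 to 600 bases, 13.2% of 37789 peaks of 600 to 800 bases and 29.5% of 37419 peaks of 800 to 1200 bases. It was 49.4% of 20973 peaks of 1200 to 2000 bases, 78.5% of 9308 peaks of 2000 to 4000 bases and 93.3% of 1422 peaks of at least 4000 bases. A wider peak can meet more H3K27ac by its length alone, so the same classes were read at the peak's middle base. The middle base lay in H3K27ac for 2.68%, 4.89%, 12.2%, 27.8%, 43.5%, 68.3% and 81.1% of the same 7 classes. The share of bases covered went from 2.60% to 73.4%. All 22 chromosomes had a higher touched share in the widest class than in the narrowest.

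**Figure D1:**
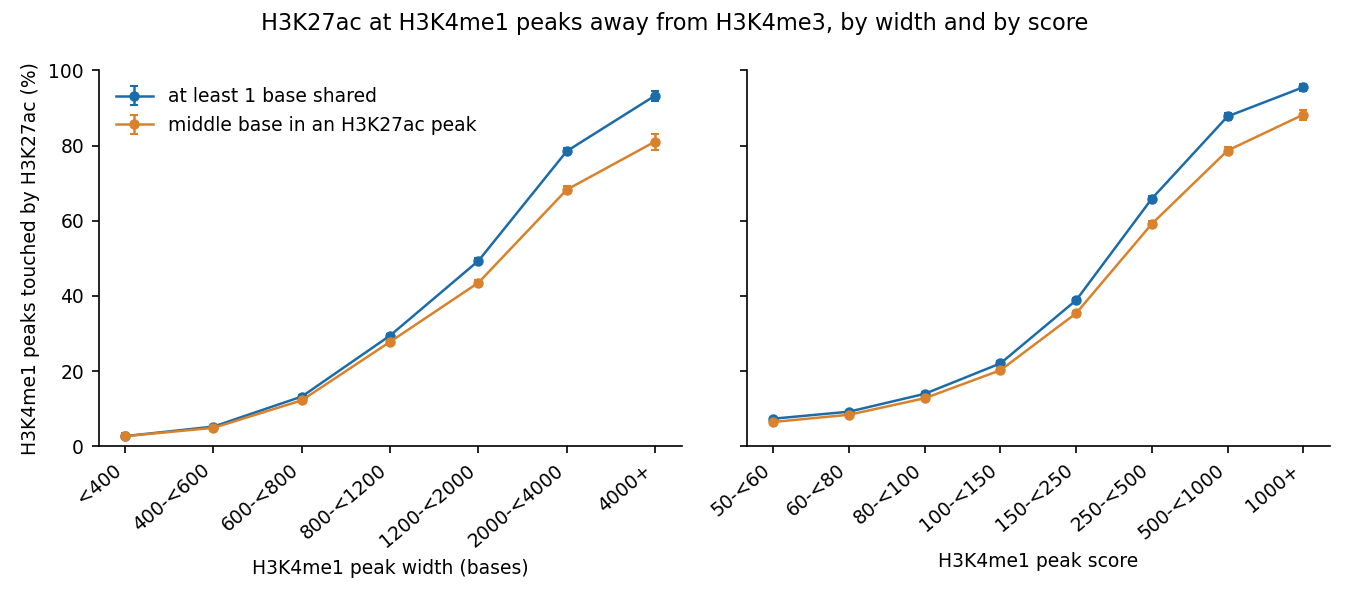
Share of H3K4me1 peaks touched by H3K27ac (vertical axis, percent) by H3K4me1 width class and by H3K4me1 score class, with the share whose middle base lies in H3K27ac; bars are 95% Wilson intervals. Both measures climb with width, from 2.68% to 93.3% and from 2.68% to 81.1%, and with score, from 7.33% to 95.5% touched.

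Score gave a rise of like size. The touched share was 7.33% of 27282 H3K4me1 peaks scoring 50 to 60, 9.20% of those scoring 60 to 80, 13.9% at 80 to 100 and 22.04% at 100 to 150. It was 38.8% at 150 to 250, 65.9% at 250 to 500, 87.8% of 6228 peaks at 500 to 1000 and 95.5% of 2245 peaks at 1000 or more. At the middle base the lowest and highest score classes stood at 6.45% and 88.2%. Width and score moved together in the H3K4me1 list, with the median width going from 577 bases in the lowest score class to 3704 bases in the highest. Each was therefore examined with the other held within a class.

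Within the width class of 800 to 1200 bases, score still ordered the peaks. There the touched share was 13.6% at scores of 50 to 60, then 17.3%, 20.7%, 25.7%, 37.0% and 66.4%, and reached 91.2% at scores of 500 to 1000. Within 1 score class, width ordered weak peaks more steadily than strong ones. At scores of 50 to 60 the touched share went from 2.26% under 400 bases through 4.59%, 10.3% and 13.6% to 18.9% at 1200 to 2000 bases. At scores of 250 to 500 it was 48.1% of 27 peaks at 400 to 600 bases, 61.9% at 600 to 800 bases, 66.4% at 800 to 1200, 62.6% at 1200 to 2000, 71.9% at 2000 to 4000 and 81.0% of 63 peaks at 4000 or more. The middle base in those 6 classes lay in H3K27ac for 48.1%, 61.9%, 65.5%, 55.1%, 60.5% and 57.1%, with no steady course along width.

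**Figure D2:**
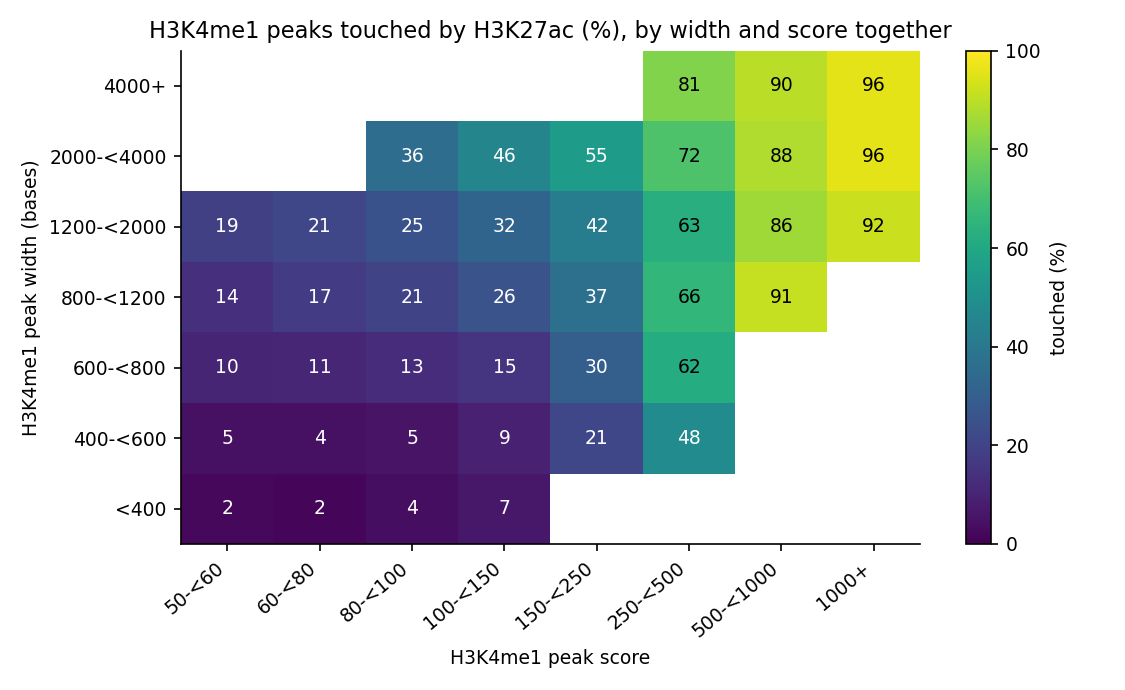
Touched share of H3K4me1 peaks (percent, colour and rounded value in each cell) for every pair of H3K4me1 width class and score class; cells with fewer than 20 peaks are blank. Shares change more along score than along width once the score is high: at 800 to 1200 bases they go from 13.6% to 91.2%.

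Seen from H3K27ac the same ordering was present from a higher floor. H3K27ac peaks touched H3K4me1 in 61.9% of cases under 400 bases, and in 67.5%, 72.2%, 78.3%, 85.9%, 94.4% and 98.7% in the 6 wider classes. By H3K27ac score the share went from 67.4% at 50 to 60 to 98.1% at 1000 or more. Even the weakest H3K27ac peaks thus lay on H3K4me1 more often than not, whereas fewer than 1 in 10 of the weakest H3K4me1 peaks lay on H3K27ac.

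Most H3K27ac peaks met exactly 1 H3K4me1 peak. Away from H3K4me3, 7986 H3K27ac peaks (19.1%) met 0, 28731 (68.6%) met 1, 4413 (10.5%) met 2, 585 (1.397%) met 3, 128 (0.306%) met 4 and 47 (0.112%) met 5 or more, up to 9. Their median widths in that order were 780, 994, 2597, 4607, 7198 and 9462 bases. Of the H3K27ac peaks that touched H3K4me1, 5173 (15.3%, 14.9 to 15.6) touched 2 or more. That share depended on small gaps in H3K4me1: after H3K4me1 peaks up to 500 bases apart were joined it was 3.35%. Across chromosomes it ran from 11.1% on chromosome 9 over a median of 15.6% to 19.7% on chromosome 21.

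Wide H3K27ac peaks held the multiple H3K4me1 peaks. The share of H3K27ac peaks touching 2 or more was 0% under 400 bases, 3.29% at 800 to 1200, 10.3% at 1200 to 2000, 33.3% at 2000 to 4000 and 66.7% at 4000 or more. The number grew more slowly than the width: H3K4me1 peaks per kb of H3K27ac went from 1.69 in the narrowest class to 0.358 in the widest. An H3K4me1 peak counts whole however few bases it shares, so part of this fall is fixed by the way of counting. The share of H3K27ac bases under H3K4me1 was nevertheless higher in wide peaks, 77.1% against 60.4%. The reverse arrangement was less frequent, with 2841 of the touched H3K4me1 peaks (7.67%) meeting 2 or more H3K27ac peaks, at most 5. Linking all peaks that touched gave 30873 groups, of which 24005 (77.8%) were 1 peak of each mark. Another 4102 (13.3%) were several H3K4me1 peaks with 1 H3K27ac peak, 1815 (5.88%) were 1 H3K4me1 peak with several H3K27ac peaks, and 951 (3.08%) had several of both.

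In the 4413 H3K27ac peaks with 2 H3K4me1 peaks, the break in H3K4me1 was short and mostly sat near the middle. The gap between the H3K4me1 peaks had a median of 165 bases (quartiles 60 and 384), and 81.4% of gaps were under 500 bases. Its centre lay at a median of 0.499 of the H3K27ac width. Positions follow genome coordinates without orientation, so a median near the middle can be expected wherever the gaps lie. The centre of the gap lay between 30% and 70% of the H3K27ac width in 68.5% of cases. Since both H3K4me1 peaks must reach into the H3K27ac peak, part of this central position is fixed by the choice of these peaks. The flanking H3K4me1 peaks were unequal, with a median width of 938 bases for the smaller and 1542 bases for the larger.

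**Figure D3:**
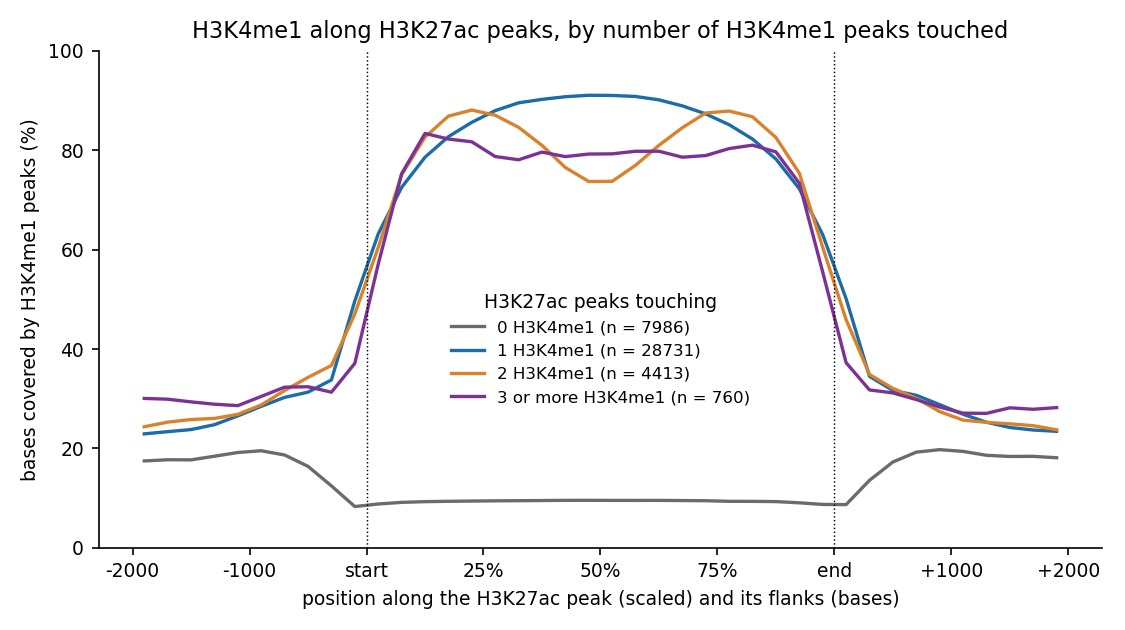
Percent of pooled bases covered by H3K4me1 peaks (vertical axis; inside the peaks, wide ones weigh more) along H3K27ac peaks scaled to one length and over 2000 bases of flank on each side (horizontal axis), one line for each number of H3K4me1 peaks touched. Peaks with 1 H3K4me1 peak are covered most at the centre (91.0%). Those with 2 have a dip there (73.7%) between shoulders of up to 88.1%. They hold a break in H3K4me1 by definition, so part of the dip is fixed by the grouping.

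H3K4me1 cover along H3K27ac peaks was taken over the pooled bases of each position, so that within the peak wide H3K27ac peaks weigh more, while in the flanks every peak weighs the same. With 1 H3K4me1 peak, cover was 91.0% at the H3K27ac centre and 63.1% in the outermost part of the peak, 49.9% in the first 200 bases outside and 23.2% at 1800 to 2000 bases. With 2, it was 73.7% at the centre and 60.4% at the ends. With 3 or more, it was 79.2% at the centre and 56.3% at the ends. Peaks touching 2 or more H3K4me1 peaks hold a break in H3K4me1 by definition, so part of their lower centre is fixed by the grouping. H3K27ac peaks counted as without H3K4me1 had 9.55% of their pooled central bases covered, all by H3K4me1 lying within 1 kb of H3K4me3; 571 of the 7986 touched such a peak. At 1800 to 2000 bases outside, cover was 17.8%.

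Edges were compared in the 24005 pairs in which each peak touched only the other. H3K4me1 was the wider partner in 15098 pairs (62.9%), with median widths of 1194 bases for H3K4me1 and 1012 for H3K27ac. H3K27ac lay wholly inside H3K4me1 in 9690 pairs (40.4%), H3K4me1 lay inside H3K27ac in 4402 (18.3%), and the peaks were staggered in 4942 (20.6%) toward one side and 4971 (20.7%) toward the other. H3K4me1 reached a median of 54 bases beyond the H3K27ac edge (quartiles −92 and 234), with 53 bases at the lower and 55 at the upper coordinate. Over chromosomes the median overhang was lowest on chromosome 13 at 14.5 bases, had a median of 53.2 and was highest at 112 bases, on chromosomes 16 and 19. With scores of at least 100 required in all 3 lists the median was 22 bases.

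**Figure D4:**
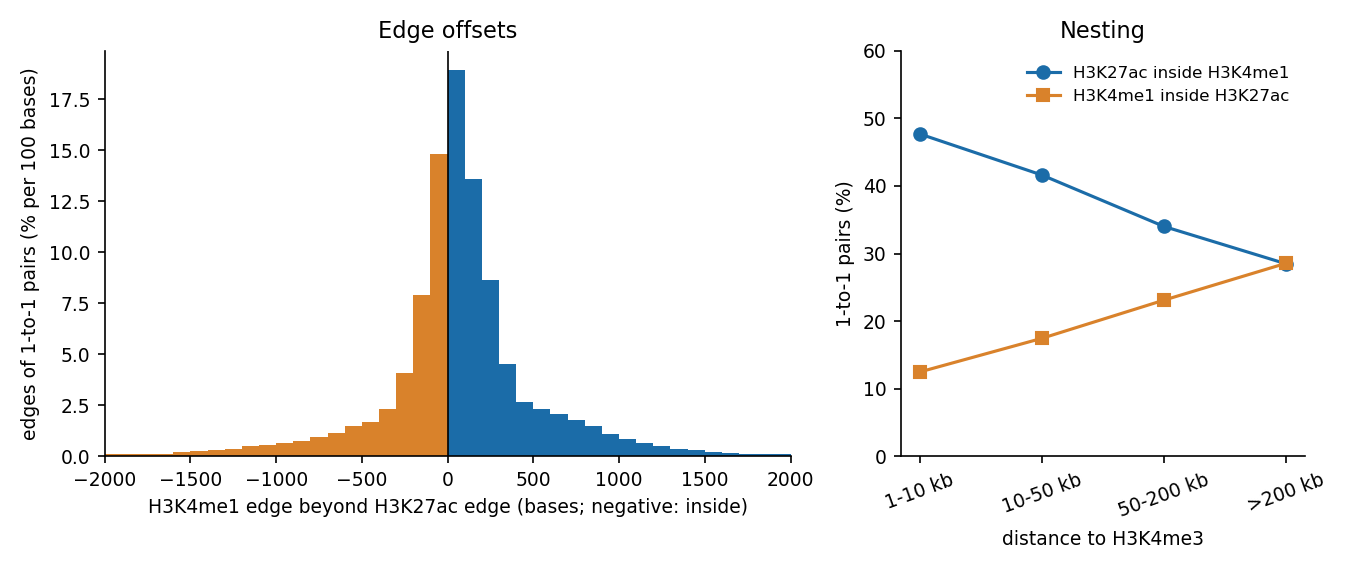
Left, distance by which an H3K4me1 edge lies beyond the H3K27ac edge in 1-to-1 pairs (horizontal axis, bases; blue outside, orange inside) against the percent of the 48010 edges in each step of 100 bases, with 0.210% beyond the axis; right, percent of pairs with either nesting by distance to the nearest H3K4me3 peak. Edges lie outside in 60.9% of cases, and H3K27ac inside H3K4me1 goes from 47.7% of pairs at 1 to 10 kb to 28.5% beyond 200 kb, where it meets the opposite nesting at 28.6%.

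The edges of paired peaks lay close together. Without regard to sign, the edges were a median of 171 bases apart, with 34.0% within 100 bases, 55.4% within 200, 79.2% within 500 and 93.0% within 1000. The middles lay a median of 136 bases apart. Across the pairs the rank correlation was 0.567 between widths and 0.423 between scores, a description over 24005 sites whose 2 marks come from the same cell line.

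Nesting turned over with H3K27ac width. The median overhang of H3K4me1 was 89.5 bases under 400 bases of H3K27ac, 121 at 400 to 600, 106.5 at 600 to 800, 64 at 800 to 1200 and 13 at 1200 to 2000. It was −72 at 2000 to 4000 and −123 at 4000 or more, where H3K27ac extended past H3K4me1. H3K27ac lay inside H3K4me1 in 76.2% of pairs in the narrowest class and 18.7% in the widest, and the opposite nesting went from 0.625% to 43.6%. A class cut by the width of one partner fixes part of this order. Whole H3K27ac peaks gave a related picture at their ends: H3K4me1 covered both ends in 43.9% of those with 1 H3K4me1 peak and 36.2% of the 5173 with 2 or more.

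Distance to the nearest H3K4me3 peak changed the touched share of H3K4me1 little over all scores. It was 22.3% of 37457 peaks at 1 to 10 kb, 25.4% of 66411 at 10 to 50 kb, 27.7% of 37605 at 50 to 200 kb and 25.7% of 5686 beyond 200 kb. The peaks at 10 to 50 kb exceeded those at 1 to 10 kb on 21 of 22 chromosomes, whereas those at 1 to 10 kb exceeded those beyond 200 kb on 10. The nearest class minus the farthest gave −3.48 percentage points. This small gap ran from −9.53 with scores of at least 100 in all 3 lists to −1.29 with nearby H3K4me1 peaks joined. H3K27ac within 1 kb of H3K4me3 does not count as a partner by the rule, which lowers chiefly the nearest class. With any H3K27ac peak as partner the gap was −1.73. The farthest class thus had no stable place in the order over chromosomes. The H3K4me1 peaks themselves differed with distance. Their median width was 831, 776, 728 and 633 bases, and their median score 97.8, 90.5, 84.5 and 77.0, from the nearest class to the farthest. Peaks scoring at least 150 made up 31.2% of the nearest class and 16.7% of the farthest.

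Among H3K4me1 peaks of like score, those farther from H3K4me3 carried H3K27ac more often. For scores of 100 to 500, a window chosen after the values were seen, the touched share was 29.9% (29.2 to 30.7) of 15539 peaks at 1 to 10 kb and 37.9% (37.3 to 38.5) of 25246 at 10 to 50 kb. It was 46.2% (45.4 to 47.1) of 13555 at 50 to 200 kb and 52.0% (49.6 to 54.3) of 1731 beyond 200 kb. The share at 10 to 50 kb exceeded that at 1 to 10 kb on 22 of 22 chromosomes, the share at 50 to 200 kb exceeded that at 10 to 50 kb on 19, and the share beyond 200 kb exceeded that at 50 to 200 kb on 16. The farthest class is small on some chromosomes, with 6 peaks on chromosome 19. At the middle base the shares were 26.6%, 34.2%, 42.7% and 49.2%. With any H3K27ac peak as partner, the nearest class stood at 32.2% and the farther classes were unchanged. The nearest class minus the farthest was then −19.8 percentage points, against −22 by the rule. Narrower score classes within the window gave the same order, with 28.8%, 38.6%, 48.3% and 61.9% at scores of 150 to 250 and 54.5%, 66.6%, 76.0% and 84.7% at 250 to 500. Below the window, at scores of 60 to 80, the last step was absent, with 6.95%, 8.79%, 11.4% and 11.3%. Weighted to one score make-up, the 4 distance classes stood at 20.2%, 24.96%, 29.9% and 33.7%.

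The last step of that order was small or absent once low-scoring peaks were left out. With a score of at least 100 required in the H3K4me1, H3K27ac and H3K4me3 lists, the window gave 17.3%, 25.2%, 33.1% and 33.0%, with no step beyond 50 kb. With only the H3K4me3 list so restricted it gave 29.8%, 37.6%, 45.9% and 46.7%. The steps up to 200 kb were present in both. Leaving out weak H3K4me3 peaks also changes the distances, so the classes do not hold the same peaks. The class beyond 200 kb held 3989 peaks in both settings, against 1731 with all H3K4me3 peaks.

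**Figure D5:**
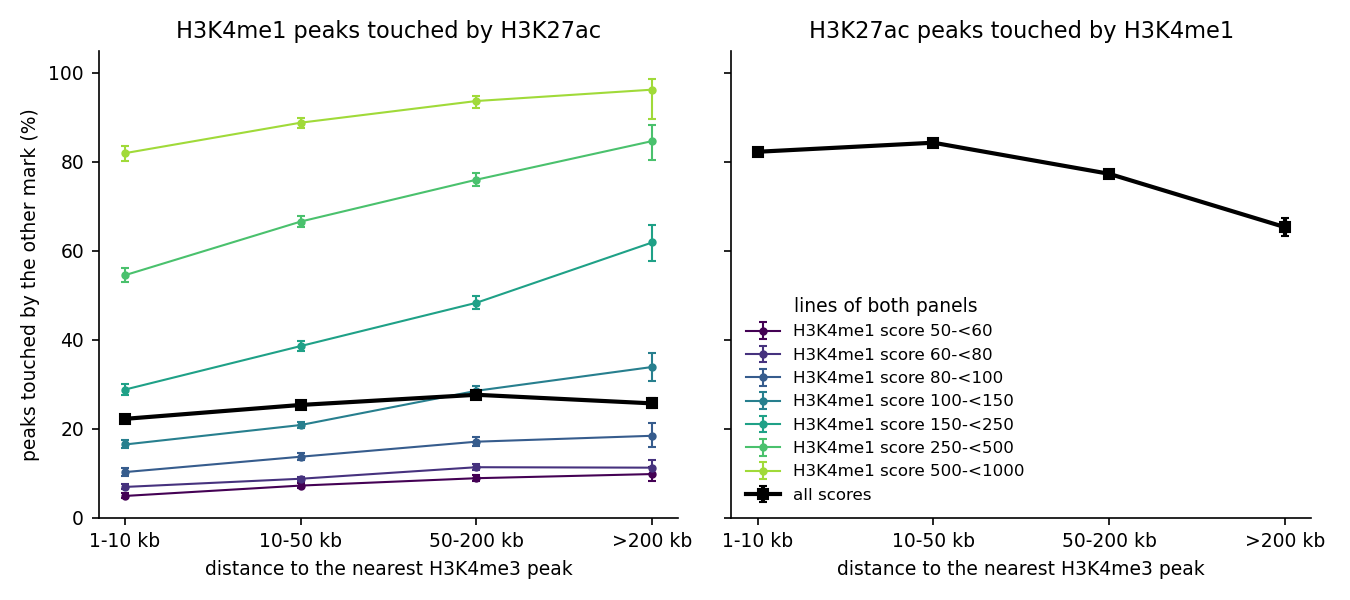
Left, share of H3K4me1 peaks touched by H3K27ac (percent) by distance to the nearest H3K4me3 peak, one line for each H3K4me1 score class and a thick line for all scores; right, share of H3K27ac peaks touched by H3K4me1 by the same distances; bars are 95% Wilson intervals. Scores of 1000 or more, with 10 peaks beyond 200 kb, are not drawn. Lines for scores of 100 to 1000 climb with distance on the left (28.8% to 61.9% at 150 to 250) while the line for all scores stays between 22.3% and 27.7%, and on the right the share is lowest beyond 200 kb (65.4%).

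H3K27ac peaks far from H3K4me3 lay on H3K4me1 less often than those nearby. The share of H3K27ac peaks on H3K4me1 was 82.3% of 9516 at 1 to 10 kb, 84.3% of 18299 at 10 to 50 kb, 77.3% of 12046 at 50 to 200 kb and 65.4% of 2029 beyond 200 kb. It was lower beyond 200 kb than at 10 to 50 kb on 22 of 22 chromosomes. Weighted to one H3K27ac score make-up the 4 values were 82.6%, 84.2%, 77.1% and 66.6%. H3K4me1 within 1 kb of H3K4me3 does not count as a partner here, which lowers chiefly the nearest class. In all, 571 H3K27ac peaks touched only such H3K4me1. With any H3K4me1 as partner, the share was 88.7% over 1000 up to 1500 bases from H3K4me3, and 90.5% over 1500 up to 2000. The number of H3K4me1 peaks divided by the number of H3K27ac peaks was 3.94, 3.63, 3.12 and 2.80 in the 4 classes. Edges moved as well: the median overhang of H3K4me1 in 1-to-1 pairs was 96, 60, 25 and −0.5 bases, and H3K27ac lay inside H3K4me1 in 47.7%, 41.6%, 34.0% and 28.5% of pairs. The opposite nesting was found in 12.5%, 17.5%, 23.1% and 28.6%, so neither mark was the usual outer one beyond 200 kb. Nesting also went with score. The median H3K4me1 score was 280 where H3K27ac lay inside and 141 in the opposite nesting. The median H3K27ac score was 85.4 and 332. From the nearest class to the farthest, the median score went from 97.8 to 77.0 for H3K4me1 and from 115 to 117 for H3K27ac. Edges by distance were not matched for score, and its part was not tested.

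Few untouched H3K4me1 peaks lay just beside an H3K27ac peak. Of 110106 untouched H3K4me1 peaks, 1.42% had an H3K27ac peak lying away from H3K4me3 within 0.2 kb, 6.76% within 1 kb, 22.6% within 5 kb and 51.0% within 20 kb, with a median gap of 19.2 kb. When H3K27ac peaks near H3K4me3 were counted too, 2.10% had one within 0.2 kb, 8.27% within 1 kb and 66.9% within 20 kb, and the median gap was 10.3 kb. Untouched H3K27ac peaks lay nearer to H3K4me1 away from H3K4me3, with 10.6% within 0.2 kb, 34.3% within 1 kb and a median gap of 2.20 kb (1.6965 kb to any H3K4me1). Since the H3K4me1 list is the longer, a short gap on that side is more easily met. Touched H3K4me1 peaks also neighboured one another. After leaving out neighbours that share an H3K27ac peak, an H3K4me1 peak 1 to 5 kb from the previous one was touched in 41.1% of cases when that neighbour was touched and in 18.9% when it was not. At 20 to 100 kb these shares were 26.4% and 15.8%, and beyond 100 kb 14.4% and 10.3%.

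The marks of gene bodies and of Polycomb repression, H3K36me3 and H3K27me3, were found more often on H3K4me1 peaks without H3K27ac than on those with it. The middle base lay in H3K36me3 for 7.21% of touched and 17.7% of untouched H3K4me1 peaks, and in H3K27me3 for 0.0567% and 0.959%. By any shared base the H3K36me3 gap was smaller, 14.6% against 20.7%, and H3K27me3 touched 0.189% and 1.43%. On the H3K27ac side the direction for H3K36me3 was the reverse: it touched 14.4% of H3K27ac peaks on H3K4me1 and 7.20% of those without it. At the middle base of the H3K27ac peaks this gap was smaller, 6.96% against 4.83%. H3K4me1 peaks centred in H3K36me3 numbered 22184 and were touched by H3K27ac in 12.05% of cases, against 27.5% of the others, at median widths of 750 and 777 bases. Of 1077 centred in H3K27me3, 21 were touched (1.95%), against 25.4% of the others, at median widths of 611 and 774 bases. H3K36me3 was itself more frequent near H3K4me3, on 26.1% of untouched H3K4me1 middles at 1 to 10 kb and 2.91% beyond 200 kb. When H3K4me1 peaks touching H3K36me3 were left out, the nearest class minus the farthest in the score window gave −17.9 percentage points, against −22 with them.

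Individual regions show the arrangements that the counts describe. The H3K27ac peak with the most H3K4me1 peaks and the greatest width among those with 9 ran on chromosome 10 from 74001237 to 74027580, 26.3 kb long and 3.81 kb from H3K4me3, with 83.9% of its bases under H3K4me1. Its 9 H3K4me1 peaks were 679 to 4881 bases wide, and their scores ran from 57.1 to the ceiling of 3100. The same number touched an H3K27ac peak on chromosome 1 from 8252791 to 8268795 (16.0 kb), where they covered 59.2%. An H3K27ac peak on chromosome 1 from 209535245 to 209551144 touched 7, as did one on chromosome 3 from 5057263 to 5069713. The fifth, on chromosome 15 from 39478456 to 39498097, touched 6 and lay 214 kb from H3K4me3. None of these 5 peaks overlapped H3K36me3 or H3K27me3.

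The widest touched H3K4me1 peaks were almost filled with H3K27ac. On chromosome 12 from 120667586 to 120692991, an H3K4me1 peak of 25.4 kb met 4 H3K27ac peaks that covered 96.6% of it. On chromosome 9 from 137253752 to 137277862, 1 H3K27ac peak covered 97.7% of 24.1 kb. A further H3K4me1 peak on chromosome 9, from 130292924 to 130310665, had 89.3% cover. Cover was 98.3% on chromosome 1 from 43399810 to 43417120, and 99.6% in the peak of chromosome 22 that ran from 25378206 to 25393773. H3K36me3 overlapped 4 of these 5 peaks, over 5.05% to 64.5% of their length.

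Exceptions to the width and score order existed among wide and high-scoring peaks of both marks. The widest H3K4me1 peak without any H3K27ac lay on chromosome 20 from 32602721 to 32610863, 8.14 kb long with a score of 718 and 15.5 kb from the nearest H3K27ac. The next, 7.47 kb long on chromosome 9 from 136834374 to 136841846, lay 1.82 kb from H3K27ac. One on chromosome 1 from 161422975 to 161429502, 6.53 kb long, scored only 137. The remaining pair of this rule spanned 6.19 kb on chromosome 14, from 100031153 to 100037341, and 6.001 kb of chromosome 9, from 140180912 to 140186912. By score the strongest H3K4me1 peak without H3K27ac, at 1995, was on chromosome 9 from 141127021 to 141129781. One scoring 1948 on chromosome 2, from 3297862 to 3300727, was 79.3 kb from the nearest H3K27ac of any place, and one scoring 1859 on chromosome 12 ran from 125023691 to 125027188. In the other direction, the widest H3K27ac peak without H3K4me1 lay on chromosome 21 from 36517628 to 36523112, 5.49 kb long with a score of 1468, 255 kb from H3K4me3 and 4.64 kb from the nearest H3K4me1. The second, of 4.95 kb, was on chromosome 20 between 22749056 and 22754003. The third, of 4.79 kb and scoring 2307, was on chromosome 5 between 167241682 and 167246469, 240.3 kb from H3K4me3.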

How the data were processed

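Reads were processed with CASAVA 1.8.2, Bowtie2 and MACS 1.4 on hg19, per the submitters' processing notes, with control, settings, duplicate filter and Bowtie2 version not given in the sources used here. Per mark the authors deposited 1 peak list combining 2 replicates, with a score per peak, read here as −10 times log10 of the caller's p because its lowest value is 50. A combined list hides replicate spread, and a caller that splits or joins broad signal sets widths and peak counts. The members, bins and alternatives were chosen with earlier results of these data known. Python 3.11.15 with numpy 2.4.6, pandas 2.3.3 and scipy 1.17.1 counted overlaps of at least 1 base on chromosomes 1 to 22; the other peaks were left out. The interval code was checked on simulated peaks (3620 checks, 0 mismatches). Regions were named by rule: the 5 H3K27ac peaks with most H3K4me1, the 5 widest H3K4me1 peaks with and the 5 without H3K27ac, the 3 highest-scoring H3K4me1 peaks without it, and the 3 widest H3K27ac peaks without H3K4me1. Input and DNase data were not used here, and no gene names or sequences were used, since the gene tables at hand are of another build. Alternatives changed the score minimum, the overlap, the distance kept from H3K4me3, the partner list, the joining of H3K4me1 peaks and the chromosomes included.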

Additional observations from a re-analysis of the deposited data

How the results depend on the processing

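No paired analysis was possible because each mark has 1 list combining its replicates, so the replicate numbers of the labels belong to no column. Of 59 recomputed values under alternatives other than leaving out a chromosome, 27 stayed within the interval of the reported value, 32 moved and 0 changed sign. Those that are shares could not change sign, so only the differences and the overhang could. With a score of at least 100 in the H3K4me1, H3K27ac and H3K4me3 lists, 33.5% of H3K4me1 and 78.8% of H3K27ac peaks were touched, the widest minus narrowest class was 87.5 points, the highest minus lowest score class 80.1, the share with 2 or more H3K4me1 peaks 16.8%, the overhang 22 bases, and the nearest minus farthest distance class −9.53 points (−15.7 in the score window). With shared bases of at least 50% of the smaller peak, the touched shares were 24.3% and 78.8% and the share with 2 or more 11.5%. Margins of 0 and 5000 bases around H3K4me3 gave 24.9% and 25.6% of H3K4me1 touched and score gaps of 86.8 and 89.1, and the wider margin an overhang of 48 bases. With any H3K27ac peak as partner the values were 25.6%, 93 points by width, 90.8 by score and −1.73 by distance. With H3K4me1 joined over gaps of up to 500 bases they were 23.8%, 87.3, 90.8 and −1.29, with an overhang of 64 bases and 3.35% with 2 or more. Only H3K4me3 peaks scoring at least 100 gave 25.7%, −2.06 by distance and −16.9 in the score window. The middle base gave 78.4 by width and 81.8 by score. Leaving out H3K4me1 that touches H3K36me3 gave −17.9 in the score window; this window and that alternative were chosen after seeing the data. Leaving out each chromosome kept the touched share of H3K27ac between 80.6% and 81.4% and the score window gap between −23 and −21. The causes of these shifts were not tested. Depth is unknown, so a missing peak may be a peak too weak to be listed.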
